A study of Mus musculus with 6 samples.

Results

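The genes described here encode the matrix metalloproteinases (MMPs), the ADAMTS proteases and ADAMTS-like proteins, and the tissue inhibitors of metalloproteinases (TIMPs). They were taken by symbol from the RefSeq protein-coding genes of mouse build mm10, which gave 51 of 21887 genes: 23 Mmp, 19 Adamts, 5 Adamtsl and 4 Timp genes. Runx1 peaks count toward a gene here if any base of them lies between 10 kb before and 10 kb past its annotated ends. Chromatin immunoprecipitation with a Runx1 antibody, followed by sequencing (ChIP-seq), was done in lung fibroblasts of Col1a2-CreERT2;mTmG mice, in which Cre activity under Col1a2 regulatory sequence switches a membrane reporter from red to green. The groups were GFP+ cells of mice with a sham injury, of mice at day 14 (D14) and of mice at day 56 (D56) after bleomycin was given into the trachea, which scars the lung. Every group carried the same driver and reporter. Each condition had 1 ChIP library and 1 input library, so nothing was replicated, and differences between conditions carry neither a test nor a p-value. The reporter marks only cells in which the Col1a2 driver was active. The sources used here do not give how many mice stood behind a library, or their age and sex.

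MMPs are zinc-dependent endopeptidases that are made as inactive precursors and cleave collagens, gelatin, proteoglycans and many non-matrix proteins once activated. ADAMTS enzymes are secreted relatives with thrombospondin repeats that cut large proteoglycans or trim procollagen ends, ADAMTS-like proteins carry the repeats without the catalytic domain, and TIMPs block the active site of MMPs and, for some TIMPs, of ADAM and ADAMTS enzymes. In the lung, fibroblasts make many of these proteins during repair and fibrosis, while several MMPs are better known from macrophages, neutrophils or epithelium. Runx1 is a DNA-binding transcription factor that acts with Cbfb.

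A Runx1 peak was called at 33 (64.7%), 42 (82.4%) and 29 (56.9%) of the 51 genes in the sham, D14 and D56 libraries, against 60.3%, 73.3% and 53.7% of all protein-coding genes. The genes held 137, 254 and 67 distinct peaks. With a peak counted at each gene it met, there were 2.62, 4.81 and 1.25 peaks per 100 kb of gene and flank. Over all protein-coding genes the same measure gave 1.94, 3.77 and 1.31. The whole lists held 25052 (sham), 56316 (D14) and 15009 (D56) peaks from 48816721, 78744701 and 49669125 ChIP tags, so the D14 library was the deepest and its list the longest. When each library was cut to its 15009 strongest peaks by the authors' p-value, hereafter lists of equal length, the 51 genes had 67, 64 and 67 peaks in sham, D14 and D56, at 27, 29 and 29 genes (52.9%, 56.9% and 56.9%). The background for such lists was 52.5%, 56.7% and 53.7% of all protein-coding genes, so these shares were near it. The larger number of peaks at D14 thus lay outside the strongest 15009. The cut makes the lists equally long by construction, and it left only 67 of the 137 sham peaks as well. A peak marks a place where binding was called, and in bulk libraries fewer cells with a bound site and less binding per cell cannot be told apart. Fold enrichment, the authors' ratio of ChIP pileup to local background, was computed in each library apart and is used here to rank and describe peaks within a list.

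Of 10 fibroblast marker genes, 8 (sham), 9 (D14) and 8 (D56) had a peak, and the proteoglycan gene Lum had none in any library. In the same order, peaks lay at 3, 5 and 3 of 5 endothelial markers and at 0, 3 and 0 of 5 myeloid markers. They lay at 0, 1 and 0 of 5 lymphocyte markers and at 2, 3 and 0 of 5 epithelial markers. Among all protein-coding genes, 60.3, 73.3 and 53.7% had a peak. Of the myeloid markers, Lyz2 and Adgre1 had no peak in any library. Ptprc, Csf1r and Itgam had 1 D14 peak each, with folds of 4.84, 3.73 and 6.12. Top D14 folds at endothelial markers were 20.7 (Erg), 17.0 (Tek), 8.82 (Cdh5), 7.55 (Pecam1) and 4.13 (Kdr). At epithelial markers they were 10.8 (Sftpc), 10.0 (Scgb1a1) and 5.53 (Epcam), and at the lymphocyte marker Cd4 5.96. Binding near a marker is not expression, and a part of other cell types in the results below was not tested.

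**Figure D1:**
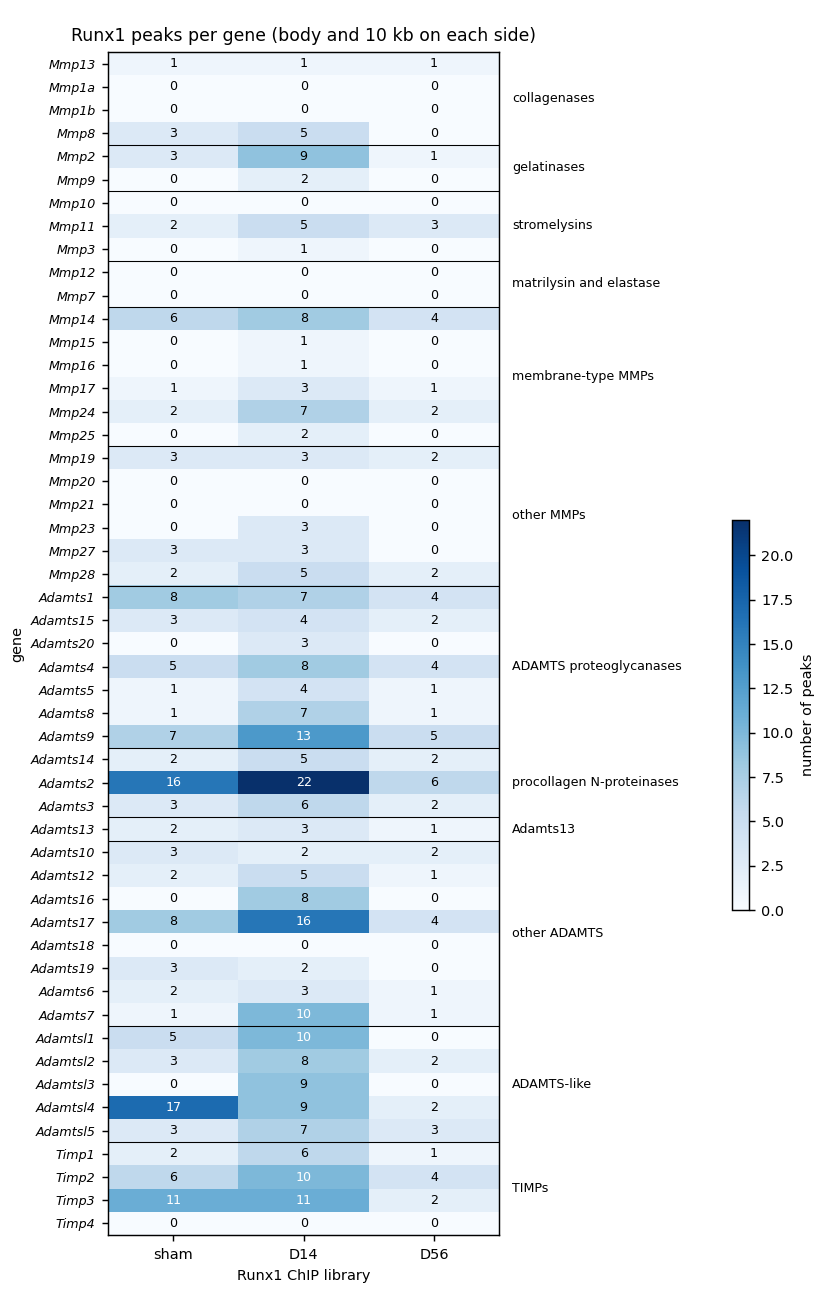
Number of Runx1 peaks at each of the 51 genes (rows, grouped by role) in the sham, D14 and D56 libraries (columns), counted in the gene body and the 10 kb on each side; darker cells hold more peaks. The highest number was 22, at Adamts2 at D14, and 9 genes had no peak in any library.

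Promoter sequences show a part of what the peaks at gene starts covered. The printed bases end at the start, while peaks also ran past it, as the Timp3 D14 peak did (chr10:86300244-86301036). RefSeq windows of GRCm38.p6 (the mm10 build), running from 250 bases before to 50 bases after an annotated start, matched 36 of the 51 genes with 39 windows. Of the 39 windows, 14 (35.9%), 24 (61.5%) and 12 (30.8%) met a sham, D14 and D56 peak, against 43.2%, 53.4% and 37.3% of all protein-coding windows. The 250 bases before the start are given, 5′ to 3′ on the gene's strand, for the 4 promoters with the highest fold at a peak. Capitals would mark the RUNX core TGTGGT, the AP-1 site TGANTCA or the TEAD site GGAATG on either strand. Other forms of a RUNX site, such as TGCGGT, were not searched, though the Adamts2 window holds it. The 4 windows hold none of the searched letters. They are Adamts2 (chr11:50601835-50602084, plus strand), Adamts9 (chr6:92943535-92943784, minus strand), Timp3 (chr10:86300162-86300411, plus strand) and Adamts17 (chr7:66839485-66839734, plus strand).
Adamts2: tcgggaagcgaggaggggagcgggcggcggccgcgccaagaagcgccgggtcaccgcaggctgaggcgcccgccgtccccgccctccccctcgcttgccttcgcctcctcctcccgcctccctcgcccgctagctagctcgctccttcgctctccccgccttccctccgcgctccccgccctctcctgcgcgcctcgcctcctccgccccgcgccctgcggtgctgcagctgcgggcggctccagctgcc
Adamts9: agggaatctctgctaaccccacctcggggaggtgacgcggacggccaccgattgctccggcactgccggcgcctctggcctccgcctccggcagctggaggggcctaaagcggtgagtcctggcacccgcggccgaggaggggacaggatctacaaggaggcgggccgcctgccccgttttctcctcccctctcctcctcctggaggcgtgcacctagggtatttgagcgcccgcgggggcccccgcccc
Timp3: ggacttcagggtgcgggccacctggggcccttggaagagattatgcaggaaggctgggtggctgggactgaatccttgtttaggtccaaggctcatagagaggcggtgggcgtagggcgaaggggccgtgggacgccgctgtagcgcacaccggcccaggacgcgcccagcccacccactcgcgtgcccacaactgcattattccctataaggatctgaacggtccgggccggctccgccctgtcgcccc
Adamts17: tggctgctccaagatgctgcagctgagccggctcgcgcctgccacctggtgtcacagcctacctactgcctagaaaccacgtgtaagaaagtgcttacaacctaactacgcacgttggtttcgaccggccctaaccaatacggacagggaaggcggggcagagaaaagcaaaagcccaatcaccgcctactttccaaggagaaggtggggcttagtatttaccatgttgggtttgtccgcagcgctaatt

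All 4 of these promoter windows met a peak in each library. At the Adamts2 start the folds were 6.59, 18.8 and 6.89 in sham, D14 and D56. The Adamts9 start had 5.97, 17.3 and 7.16. The Timp3 start had 7.54, 15.7 and 6.17, and the Adamts17 start 8.17, 13.9 and 13.0. G and C made 78, 71.2, 65.6 and 54.4% of these windows in the order shown. The median was 52.4% over all 32851 RefSeq windows, which are not limited to protein-coding genes.

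Another 5 promoters, chosen after their values were seen, show starts that differed between libraries or that hold a motif. Adamts20 (chr15:94404351-94404600, minus strand) and Mmp11 (chr10:75932503-75932752, minus strand) met a D14 peak and no sham peak. They hold none of the searched motifs, though Mmp11 holds TGCGGT, a form that was not searched. Mmp14 (chr14:54431348-54431597, plus strand) met a peak in every library and has the RUNX core as ACCACA from 114 bases before the start. Mmp3 (chr9:7445572-7445821, plus strand) met a D14 peak alone and has the AP-1 site TGAGTCA from 46 bases before the start. Mmp13 (chr9:7272264-7272513, plus strand) met no peak and has ACCACA from 118 and TGACTCA from 35 bases before the start.
Adamts20: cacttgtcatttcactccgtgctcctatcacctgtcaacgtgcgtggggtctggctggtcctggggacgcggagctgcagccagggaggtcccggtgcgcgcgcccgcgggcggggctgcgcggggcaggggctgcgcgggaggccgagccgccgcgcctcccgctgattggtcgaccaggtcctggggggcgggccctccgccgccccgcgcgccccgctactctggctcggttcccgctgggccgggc
Mmp11: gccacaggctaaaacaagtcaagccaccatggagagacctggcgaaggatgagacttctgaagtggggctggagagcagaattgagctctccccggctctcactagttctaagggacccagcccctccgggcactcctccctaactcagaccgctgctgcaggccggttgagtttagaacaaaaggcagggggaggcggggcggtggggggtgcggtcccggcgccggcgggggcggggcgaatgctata
Mmp14: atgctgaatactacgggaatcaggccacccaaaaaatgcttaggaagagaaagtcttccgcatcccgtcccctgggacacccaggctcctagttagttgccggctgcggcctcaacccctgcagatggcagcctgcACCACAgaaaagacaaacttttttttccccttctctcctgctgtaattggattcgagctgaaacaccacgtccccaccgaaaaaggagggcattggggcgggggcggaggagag
Mmp3: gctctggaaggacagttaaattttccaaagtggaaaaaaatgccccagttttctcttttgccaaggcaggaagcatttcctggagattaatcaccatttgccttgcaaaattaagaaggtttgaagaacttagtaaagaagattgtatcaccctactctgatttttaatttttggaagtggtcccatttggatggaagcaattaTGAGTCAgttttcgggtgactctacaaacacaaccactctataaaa
Mmp13: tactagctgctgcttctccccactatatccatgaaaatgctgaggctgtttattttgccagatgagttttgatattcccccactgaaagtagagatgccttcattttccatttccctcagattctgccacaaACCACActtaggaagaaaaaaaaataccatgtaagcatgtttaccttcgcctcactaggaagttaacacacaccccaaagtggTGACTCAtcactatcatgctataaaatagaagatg

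The letters of the AP-1 site were concentrated in 1 gene cluster. Motifs, like the G and C content, were read in the 250 bases before the start alone. Of the 39 windows, the RUNX core in the form TGTGGT stood in 6 (15.4%, 95% Wilson interval 7.25 to 29.7). Other forms of a RUNX site were not counted. The AP-1 site stood in 8 (20.5%, 10.8 to 35.5) and the TEAD site in 2 (5.13%, 1.42 to 16.9). In all 32851 windows, which are not limited to protein-coding genes, the shares were 14.0, 6.75 and 12.6%. All 8 windows with the AP-1 site lay in the chromosome 9 MMP cluster, where 8 of 12 windows held it, and none of the 27 other windows did (up to 12.5% by the Wilson interval). Windows that met a peak held the RUNX core in 3 of 24 and the AP-1 site in 1 of 24, and windows without a peak in 3 of 15 and 7 of 15. The cluster windows had a median G and C content of 40.2%, against 64.4% in the other 27. A match describes these letters only, and the difference between windows with and without a peak moves with base composition and with the cluster, whose part in it was not tested.

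The collagenases, which cut intact fibrillar collagen, carried few peaks. Mmp13 had 1 peak in each library at the same place, about 2.3 kb before the start (chr9:7270123-7270415 at D14), with folds of 3.48 in sham, 6.32 at D14 and 6.56 at D56. These stood at percentiles 11.8, 57.2 and 46.9 of their own lists. Mmp8, the neutrophil collagenase, had 3, 5 and 0 peaks in sham, D14 and D56, but all 3 sham peaks also belonged to the neighbouring Mmp27 and lay in it or at its start. The D14 list had 2 peaks nearer to Mmp8, at 65 bases before the start (fold 5.97) and 1.84 kb after it, and neither overlapped a sham peak. In lists of equal length Mmp8 had 0 peaks at D14 and 1 in sham. Mmp1a and Mmp1b, the mouse relatives of human interstitial collagenase, had none in any library.

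The gelatinases, which digest denatured collagen and basement membrane, differed from each other. Mmp2, the gelatinase typical of fibroblasts, had 3, 9 and 1 peaks in sham, D14 and D56, and 6 of the 9 D14 peaks overlapped no sham peak. Its peak at chr8:92850202-92850549 was shared by all 3 libraries, with folds of 7.45 in sham, 10.4 at D14 and 7.58 at D56. A D14 peak next to it, at chr8:92849329-92849748, was the strongest of the gene (fold 11.0) and overlapped neither a sham nor a D56 peak. Mmp9, known mostly from leukocytes, had 2 peaks at D14 (folds 6.17 and 8.47) and none in the other libraries, neither of them within the strongest 15009 of the D14 list.

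Among the stromelysins, Mmp11 had 2, 5 and 3 peaks in sham, D14 and D56. Mmp11 is a secreted MMP that furin activates inside the cell. Both sham peaks lay nearest to an end of the neighbouring Smarcb1, and the start peak of Mmp11, over the sequence shown above, was called at D14 (chr10:75932377-75932627, fold 8.38) and at D56 (fold 4.21) and not in sham. It was 1 of 2 D14 peaks without a sham overlap at the 51 genes that were found at D56, and at D56 it stood at percentile 7.36 of the list. With equal lists Mmp11 had 1, 0 and 3 peaks in sham, D14 and D56. Mmp3 had 1 peak at D14, at its start (fold 4.28), and Mmp10 had none. Mmp7 (matrilysin) and Mmp12 (macrophage elastase) had no peak in any library.

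The membrane-type MMPs, which are anchored at the cell surface, had peaks at 3, 6 and 3 of 6 genes in sham, D14 and D56. Among all protein-coding genes the shares were 60.3, 73.3 and 53.7%. Mmp14, the membrane collagenase that also activates the Mmp2 precursor, had 6, 8 and 4 peaks in sham, D14 and D56. Its strongest peak lay in every library about 12.3 to 12.4 kb past the start, just beyond the gene (chr14:54443223-54444276 at D14), with folds of 8.44, 10.7 and 10.3 in sham, D14 and D56. The peak at its start, over the window shown above, had folds of 5.40, 4.92 and 4.57. A D14 peak 3.77 kb past the start (fold 10.0) overlapped no peak of the other libraries. Mmp14 had 4, 3 and 4 peaks in sham, D14 and D56 in lists of equal length, so its order turned there.

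Mmp17, which is held by a lipid anchor, had 1, 3 and 1 peaks in sham, D14 and D56. The peak over an annotated end of the gene (chr5:129583743-129584330 at D14) stood at percentile 3.83 of the sham list (fold 2.99), 88.7 of the D14 list (fold 14.5) and 0.936 of the D56 list (fold 3.18). Of the 29 genes with peaks in all 3 libraries, Mmp17 was the only one whose strongest peak stood under percentile 5 in both sham and D56. Mmp24 had 2, 7 and 2 peaks, and the strongest of them (folds 8.46, 15.3 and 5.97) lay nearest to an end of the neighbouring BC029722. With each peak given to its closest gene, Mmp24 kept 0, 3 and 0 peaks. Mmp15, Mmp16 and Mmp25 had 1, 1 and 2 peaks at D14 and 0 in both other libraries. Of these, the Mmp15 peak lay at the start (fold 4.84).

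Of the remaining MMPs, Mmp28 (epilysin) held the strongest D14 peak of the 51 genes. It had 2, 5 and 2 peaks in sham, D14 and D56, and that peak (folds 10.5, 23.1 and 13.9) lay 9.95 kb before the Mmp28 start and 84 bases from an end of Taf15, so it went to Taf15 when each peak was given to its closest gene. A second D14 peak lay at the Mmp28 start itself (fold 9.74) and overlapped no sham or D56 peak. Mmp19 had 3, 3 and 2 peaks, the strongest of them (6.27, 18.5 and 6.91) nearest to an end of Tmem198b. With each peak given to its closest gene, Mmp19 kept 0, 1 and 0 peaks. Mmp23 had 3 peaks at D14 (folds 5.74 to 9.80) and 0 in the other libraries, and Mmp27 had 3, 3 and 0. Mmp20, the enamel protease, and Mmp21, known for left-right patterning, had none.

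**Figure D2:**
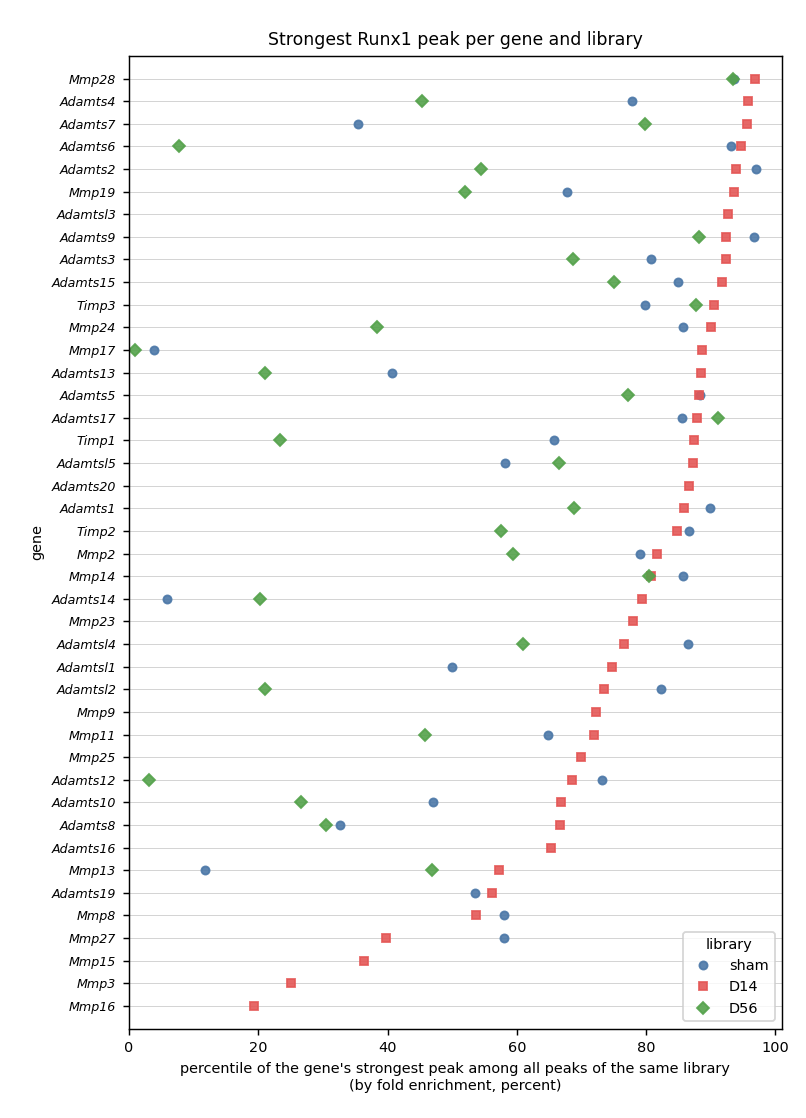
Percentile of each gene's strongest Runx1 peak among all peaks of the same library, by fold enrichment (x axis, percent), for the 42 genes with a peak (y axis); points are sham, D14 and D56, and a missing point means no peak. Mmp17 stood at 3.83 in sham, 88.7 at D14 and 0.936 at D56, while Mmp28 was above 93 in every library.

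The cluster on chromosome 9 (7272514 to 7699585) holds 10 MMP genes in 427 kb, and most of them had no peak. Peaks lay at 3, 4 and 1 of its 10 genes in sham, D14 and D56, against 7, 12 and 7 of the 13 MMP genes elsewhere. Among all protein-coding genes the shares were 60.3, 73.3 and 53.7%. Counted over the gene bodies and their flanks, the cluster genes had 1.98, 2.83 and 0.283 peaks per 100 kb (sham, D14, D56), the MMP genes elsewhere had 2.58, 6.65 and 2.04, and all protein-coding genes 1.94, 3.77 and 1.31. By this measure the sham density of the cluster genes was near that of all genes, while those at D14 and D56 were lower. The measure counts a peak at each gene it meets, for the cluster and for all genes alike. All 3 sham peaks of Mmp27 were thus counted at Mmp8 as well. The cluster genes held 4, 7 and 1 distinct peaks in sham, D14 and D56. The sham comparison therefore cannot tell distinct peaks from peaks shared by neighbouring genes. Read over the whole span with 10 kb on each side, the cluster held 6, 10 and 3 peaks, or 1.34, 2.24 and 0.671 per 100 kb. This reading counts each peak once and takes in the sequence between the genes. It adds peaks more than 10 kb from any of the genes, 2, 3 and 2 in number. One of these, nearest to Mmp8 (chr9:7545451-7545831 in sham), had folds of 14.5, 9.02 and 7.68 in sham, D14 and D56, and its sham fold was above any at the 51 genes, where the highest was 12.1. The cluster genes with peaks were Mmp13, Mmp8, Mmp27 and Mmp3, and those without were Mmp1a, Mmp1b, Mmp7, Mmp10, Mmp12 and Mmp20. The lists of equal length left the cluster genes 1, 0 and 1 peaks in sham, D14 and D56.

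The ADAMTS proteoglycanases, which cut aggrecan and versican, had peaks at 6, 7 and 6 of 7 genes in sham, D14 and D56. Among all protein-coding genes the shares were 60.3, 73.3 and 53.7%. The proteoglycanase genes held 25, 46 and 17 peaks. Cut to equal length, the lists held 17, 15 and 17 of these peaks at 5, 6 and 6 genes. Adamts4 had 5, 8 and 4 peaks, and its strongest lay 2900 bases outside the gene (chr1:171246991-171247579 at D14), with folds of 7.32 in sham, 21.2 at D14 and 6.45 at D56. Adamts9, a conserved proteoglycanase needed for mouse development, had 7, 13 and 5 peaks. Its start peak, over the promoter shown above, led the gene's D14 peaks (fold 17.3), and an intragenic peak at chr6:92850163-92850749 led in sham (11.9) and at D56 (12.0).

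Adamts1 and Adamts5 lie close together on chromosome 16. Adamts1, an anti-angiogenic protease, had 8, 7 and 4 peaks in sham, D14 and D56, and its start peak reached folds of 8.30, 12.9 and 8.58. It is a short gene, with 27.3, 23.9 and 13.7 peaks per 100 kb of gene and flank. With only folds of 5 or more counted, the order of sham and D14 turned to 1 more peak at D14. Adamts5, the main cartilage aggrecanase in mice, had 1, 4 and 1 peaks, of which 1 was shared by all 3 libraries (chr16:85898209-85898948 at D14, folds 8.96, 14.1 and 9.77).

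Adamts15 had 3, 4 and 2 peaks. Its strongest D14 peak, at the gene end (chr9:30922216-30922891, fold 16.8), was called in sham with a fold of 4.89 and at D56 with 9.44. Adamts8 had 1, 7 and 1 peaks, and 6 of the D14 peaks overlapped no sham peak. Of these, the peak 1019 bases beyond the gene (chr9:30964422-30965036, fold 7.48) was the other such peak that was found at D56, with a fold of 5.55 there. Adamts20, known from mouse pigment mutants, had 3 peaks, all at D14. The strongest of them covered the start shown above (chr15:94404172-94404543, fold 13.2) and was within the strongest 15009 of the D14 list.

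The procollagen N-proteinases, which remove the amino-terminal propeptide of fibrillar procollagens, had peaks at all 3 genes in every library. These are long genes. Of all protein-coding genes of 30 to 100 kb and of 100 kb or more, 87.1 and 91.0% had a D14 peak. In sham the shares were 73.6 and 71.9%, and at D56 65.6 and 61.3%. Adamts2, the main N-proteinase of skin, had 16, 22 and 6 peaks in sham, D14 and D56, the highest number of the 51 genes at D14 and at D56. Its 205.5 kb gene with the flanks held 7.10, 9.76 and 2.66 peaks per 100 kb. All 6 D56 peaks overlapped both a sham and a D14 peak, while 8 of the 22 D14 peaks had no sham overlap and 3 of the 16 sham peaks no D14 overlap. The strongest peak differed by library, at 20.3 kb past the start in sham (fold 12.1), at the start at D14 (fold 18.8) and 30.4 kb past it at D56 (fold 7.13). Among the strongest 15009 peaks of each library Adamts2 had 9 in sham, 7 at D14 and 6 at D56.

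Adamts3, which also processes the lymphatic growth factor Vegfc, had 3, 6 and 2 peaks. Its start peak was called at D14 alone (fold 10.6), and a peak 33.0 kb past the start was called in all libraries at folds of 3.27 in sham, 17.2 at D14 and 8.57 at D56. Adamts14 had 2, 5 and 2 peaks, and both of its sham peaks, at the start and 4.73 kb before it, stood low in the sham list, at percentiles 5.86 and 0.838. Adamts13, which cleaves von Willebrand factor, had 2, 3 and 1 peaks. All of these lay nearest to an end of Cacfd1 or Rexo4, and none was left when each peak was given to its closest gene.

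Among the other ADAMTS genes, Adamts7 and Adamts16 had nearly all of their peaks at D14. Adamts7, which cleaves cartilage oligomeric matrix protein, had 1, 10 and 1 peaks in sham, D14 and D56. The peak over its annotated end (chr9:90162668-90163371 at D14) was called in each library, at folds of 4.44, 20.9 and 10.2, and the other 9 D14 peaks overlapped neither a sham nor a D56 peak. Adamts16, linked to blood pressure in rats, had 8 peaks at D14 (folds 3.61 to 7.26) and 0 in the other libraries. In lists of equal length Adamts7 had 0, 1 and 1 peaks and Adamts16 none, so all but 1 of their D14 peaks lay below the strongest 15009.

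Adamts17, linked to fibrillin microfibrils, had 8, 16 and 4 peaks in sham, D14 and D56. All 8 sham peaks and all 4 D56 peaks overlapped a D14 peak. The start peak shown above was its strongest at D14 and at D56, and in lists of equal length it had 4, 3 and 4 peaks. Adamts6 had 2, 3 and 1 peaks, led in each library by a peak next to its annotated end (chr13:104286801-104287199 at D14) at folds of 10.4, 19.6 and 4.24. At D56 that peak stood at percentile 7.82 of the list, against 93.2 in sham. Adamts12, a relative of Adamts7, had 2, 5 and 1 peaks and held the only region of the 51 genes called in sham and at D56 and not at D14 (chr15:11116440-11116680 by its sham peak, with folds of 3.66 at D56 and 6.79 in sham).

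Adamts10, a fibrillin-binding relative of Adamts6, had 3, 2 and 2 peaks, and with lists of equal length or folds of 5 or more it had more peaks at D14 than in sham. Adamts19 had 3, 2 and 0 peaks with folds of 4.09 to 6.22, and 1 more at D14 than in sham with folds of 5 or more. Adamts18, known for its part in eye development, had none in a gene of 152.2 kb. Genes of 100 kb or more carried a D14 peak in 91.0% of cases, and Adamts18 was the 1 of the 13 such genes here without one.

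At the ADAMTS-like genes 16 of 28 sham peaks overlapped no D14 peak (57.1%, against 7.16% over all protein-coding genes). Of these, 12 lay at Adamtsl4 and 4 at Adamtsl1. Adamtsl4, a microfibril protein of the lens zonule, had 17, 9 and 2 peaks in sham, D14 and D56, the largest excess of sham over D14 peaks among the 51 genes. That made 53.6, 28.4 and 6.30 peaks per 100 kb, and 12 of the 17 sham peaks overlapped no D14 peak. These 12 had folds of 2.73 to 4.48 and ran from inside the gene to 3114 bases from an end of Mcl1, while the 5 shared peaks had folds of 4.08 to 8.59. Within equally long lists Adamtsl4 had 4, 2 and 2 peaks. The excess shrank under other settings, to 6 peaks at D14 and 10 in sham with a gene window of 2.5 kb, 7 and 10 with a minimum −log10 q of 5, and 3 and 4 with folds of 5 or more.

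Adamtsl3, a matrix protein of unknown activity, had 9 peaks, all of them at D14. An intragenic peak 198.5 kb past its start (chr7:82533866-82534575, fold 17.6, percentile 92.7) was the strongest D14 peak of the 51 genes without a sham overlap. Its start also carried a D14 peak, at a fold of 8.89. Among 5583 D14 peaks at protein-coding genes with folds of 15 or more, 66 lacked a sham overlap (1.18%), and the Adamtsl3 peak was the 1 of 12 such peaks at these genes. Adamtsl3 kept 2 peaks in the D14 list of equal length.

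Adamtsl1, the longest of the genes at 914.5 kb, had 5, 10 and 0 peaks in sham, D14 and D56. Only 1 of the 10 D14 peaks overlapped a sham peak, and 4 of the 5 sham peaks overlapped no D14 peak. Adamtsl2, which binds fibrillin and latent TGF-beta binding protein, had 3, 8 and 2 peaks, and Adamtsl5 had 3, 7 and 3. In lists of equal length Adamtsl2 had 2, 1 and 2 peaks and Adamtsl5 3, 2 and 3, so both had 1 peak fewer at D14 than in sham there.

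Of the inhibitors, Timp1, Timp2 and Timp3 had peaks in every library and Timp4 in none. Timp1, the soluble inhibitor induced in injured lung, had 2, 6 and 1 peaks in sham, D14 and D56, and its start peak reached folds of 6.12, 13.6 and 5.17. Timp1 lies within the annotated span of Syn1, so position alone does not tell the genes apart. Timp2, which bridges Mmp14 and the Mmp2 precursor, had 6, 10 and 4 peaks. Its start peak had folds of 8.17, 11.6 and 4.57, and its leading intragenic peak (chr11:118327051-118328004 at D14) 8.63, 12.3 and 5.82, the last being the stronger of 2 D56 peaks under it. Timp2 overlaps the annotated span of Cep295nl. Of the 10 D14 peaks, 5 lay nearest to an end of Cep295nl, the leading intragenic peak among them.

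Timp3, the inhibitor that binds to matrix and also blocks ADAMTS enzymes, had 11, 11 and 2 peaks in sham, D14 and D56. It is nested in Syn3. Both D56 peaks overlapped sham and D14 peaks, at the start shown above and 39.4 kb past it (folds 7.55 in sham, 14.0 at D14 and 12.0 at D56). Of the 11 D14 peaks, 8 overlapped a sham peak, and 3 of the 11 sham peaks overlapped no D14 peak. Within equally long lists the TIMP genes had 10, 8 and 7 peaks in sham, D14 and D56.

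The first comparison asks which Runx1 sites of these genes were called at D14 and had no counterpart in sham lungs. A D14 peak and no sham peak occurred at 9 of the 51 genes (17.6%), against 13.1% of all protein-coding genes, and these were Adamts16, Adamts20, Adamtsl3, Mmp3, Mmp9, Mmp15, Mmp16, Mmp23 and Mmp25. At least 1 D14 peak that overlapped no sham peak lay at 39 genes (76.5%), against 52.5% of all protein-coding genes. Taken over peaks, 143 of 254 D14 peaks overlapped no sham peak (56.3%, 50.1 to 62.3), and the share over all protein-coding genes was 55.4%, within that interval. By role, the share was 69.8% of 43 peaks at ADAMTS-like genes, 67.4% of 46 at the other ADAMTS genes, 62.5% of 56 at MMP genes, 44.4% of 27 at TIMP genes, 43.5% of 46 at proteoglycanases and 42.4% of 33 at N-proteinases. Over equal lists it was 28.1% of 64 peaks (18.6 to 40.1), against 22.7% over all protein-coding genes in such lists, which that interval holds.

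Strength separated the 2 kinds of D14 peak at these genes, as it did elsewhere. Those that overlapped no sham peak had a median fold of 4.84 (143 peaks, 2.35 to 17.6), and those with one a median of 7.94 (111 peaks, 2.76 to 23.1), against medians of 4.75 and 10.5 over all protein-coding genes. Within the strongest 15009 D14 peaks stood 10 of the 143 and 54 of the 111. By band of D14 fold, the share without a sham overlap was 76.0% under 5, 54.1% from 5 to 10, 13.8% from 10 to 15 and 8.33% at 15 or more, against 83.7, 59.5, 15.8 and 1.18% over all protein-coding genes. The interval of the lowest band (66.9 to 83.2) ended below its background, those of the next 2 bands held theirs, and that of the highest band (1.49 to 35.4, from 1 of 12 peaks) began above it.

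**Figure D3:**
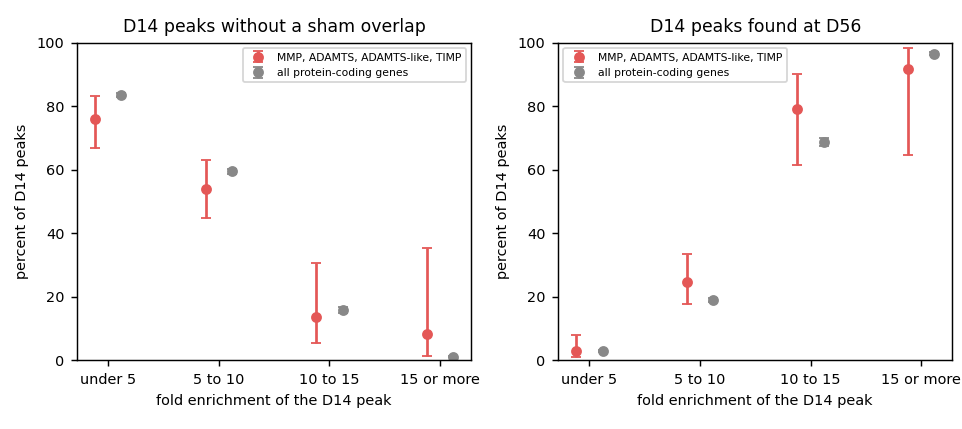
Share of D14 Runx1 peaks without a sham overlap (left) and found at D56 (right), in percent, by fold enrichment of the D14 peak (x axis), for peaks at the 51 genes and at all protein-coding genes; bars give the 95% Wilson interval (counting error alone). At the 51 genes, 76.0% of peaks with a fold under 5 lacked a sham overlap and 8.33% of those at 15 or more did.

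Sham peaks without a D14 counterpart made a larger share at these genes than over all protein-coding genes. Of 137 sham peaks, 31 overlapped no D14 peak (22.6%, 16.4 to 30.3), against 7.16% over all protein-coding genes, and they lay at 13 genes (25.5%), against 5.66%. Adamtsl4 held 12 of the 31, and without it the share was 19 of 120 (15.8%, 10.4 to 23.4). The share differed by role, at 57.1% of 28 at ADAMTS-like genes and 21.1% of 19 at TIMP genes. It was 14.9% of 67 at ADAMTS genes and 4.35% of 23 at MMP genes. All such peaks of the ADAMTS-like genes lay at Adamtsl4 (12) and Adamtsl1 (4). The 31 peaks were weak, with folds of 2.73 to 6.79 and a median of 3.75, and 1 of them was within the strongest 15009 of the sham list. Under a fold of 5, 29 of 76 sham peaks at these genes lacked a D14 overlap (38.2%, 28.1 to 49.4), against 13.9% over all protein-coding genes, and without Adamtsl4 17 of 63 (27.0%, 17.6 to 39.0). At folds of 5 or more it was 2 of 61 (3.28%, 0.904 to 11.2), against 1.51%. Neighbouring peaks of 1 gene share their surroundings and are not independent, and the share moved with the overlap rule, to 46.0% under a reciprocal overlap of 50%, against 25.5% over all protein-coding genes. With equal lists it was 31.3% (21.5 to 43.2), against 20.2%.

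D56 was set against D14 and sham to ask which peaks were still called late after injury. Genes with a D14 peak and no D56 peak numbered 13 of 51 (25.5%), against 19.6% of all protein-coding genes, and genes with a sham peak and no D56 peak numbered 4 (7.84%), against 7.05%. These 4 were Adamts19, Adamtsl1, Mmp8 and Mmp27. No gene had a D56 peak and no sham peak, against 0.489% of all protein-coding genes. Over peaks, 190 of 254 D14 peaks overlapped no D56 peak (74.8%, 69.1 to 79.7), against 70.6%.

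Of the 143 D14 peaks with no sham counterpart, 2 recurred at D56 (1.40%, 0.384 to 4.96), against 1.61% over all protein-coding genes. They lay at 2 of the 51 genes, Mmp11 and Adamts8, against 2.31% of all protein-coding genes. Of the 111 that overlapped a sham peak, 62 recurred at D56 (55.9%, 46.6 to 64.7), against 63.9%. Of 67 D56 peaks, 3 overlapped no sham peak (4.48%, 1.53 to 12.4), against 3.24%, and they lay at Mmp11, Mmp19 and Adamts8. The one at Mmp19 was nearest to an end of Dnajc14. The share of D14 peaks found at D56 followed D14 strength, at 2.88% under a fold of 5, 24.8% from 5 to 10, 79.3% from 10 to 15 and 91.7% at 15 or more, against 2.86, 19.1, 68.7 and 96.5% over all protein-coding genes. The 1 peak of 12 at folds of 15 or more that was not found at D56 was the Adamtsl3 peak.

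Joined across libraries, the peaks formed 277 regions. All 3 libraries shared 59 of them (21.3%), against 27.5% of regions at all protein-coding genes. D14 alone held 141 (50.9%, against 53.6%), sham and D14 held 44 (15.9%, against 14.6%) and sham alone 30 (10.8%, against 3.29%). D14 and D56 without sham shared 2 regions, sham and D56 without D14 shared 1, and D56 alone held 0.

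**Figure D4:**
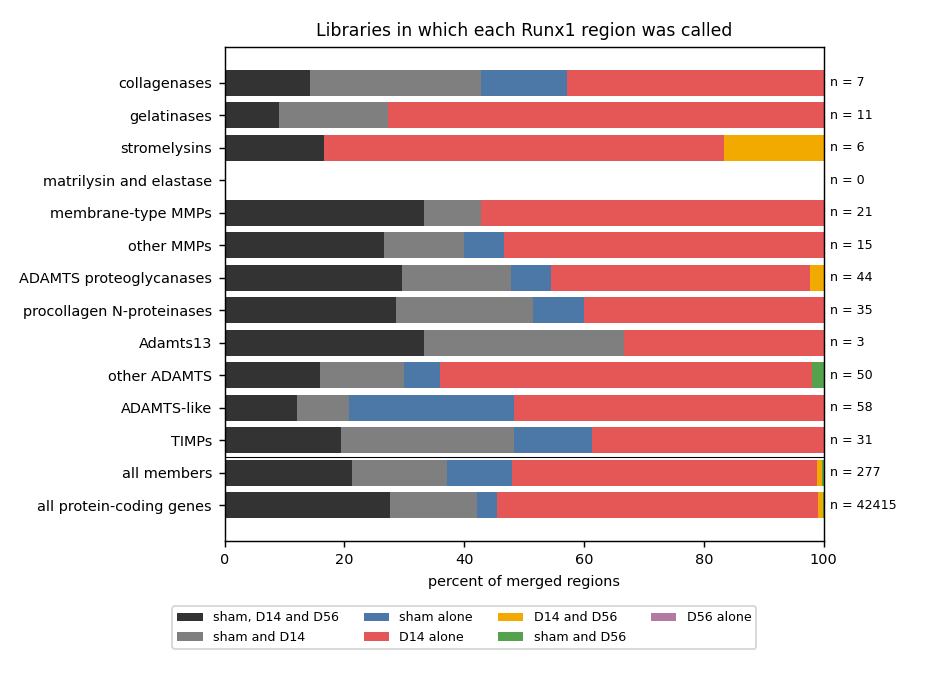
Share of merged Runx1 regions (x axis, percent) by the libraries in which they were called, for each role class, the 51 genes together and all protein-coding genes (y axis, n regions at the right). Regions called in sham alone made 10.8% at the 51 genes and 3.29% at all protein-coding genes. The ADAMTS-like class held the most of them, all at Adamtsl4 and Adamtsl1.

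Since a longer gene offers more room for a peak, shares are also given by length. At D14 peaks lay at 6 of 10 genes under 10 kb (60.0%, against 53.6% of all protein-coding genes of that length), 16 of 19 of 10 to 30 kb (84.2%, against 80.1%), 8 of 9 of 30 to 100 kb (88.9%, against 87.1%) and 12 of 13 of 100 kb or more (92.3%, against 91.0%). In sham the counts were 5, 12, 8 and 8 (50, 63.2, 88.9 and 61.5%, against 42.6, 67.2, 73.6 and 71.9% of all protein-coding genes of these lengths). At D56 they were 5, 10, 8 and 6 (50, 52.6, 88.9 and 46.2%, against 38.6, 60.2, 65.6 and 61.3%). Both libraries thus had 2 classes above and 2 below the share of all genes. Most D14 peaks lay further inside the gene (150 of 254, 59.1%), with 52 within 1 kb of an end of the gene they were counted at and 52 further outside. Peaks within 1 kb of any protein-coding gene end made 29.2% in sham, 25.6% at D14 and 47.8% at D56, against 49.0, 33.2 and 63.8% at all protein-coding genes. The nearest gene end was that of the gene itself for 116 of 137 sham, 221 of 254 D14 and 54 of 67 D56 peaks.

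**Figure D5:**
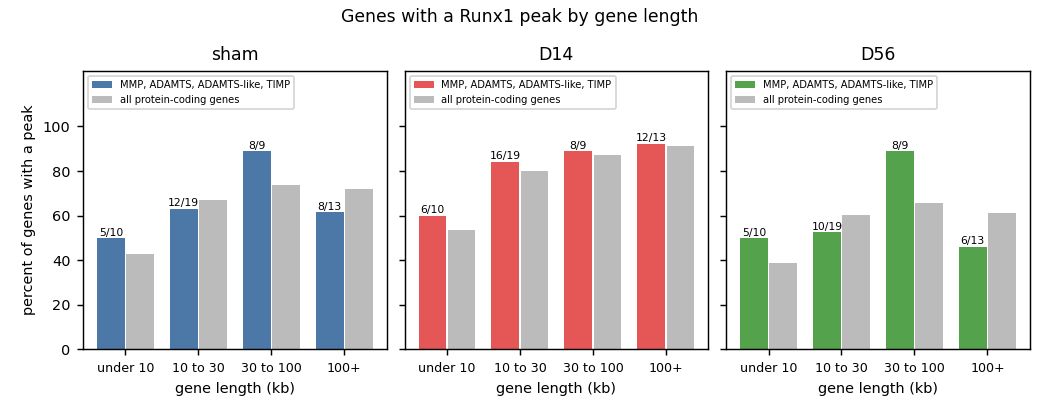
Percent of genes with a Runx1 peak (y axis) by gene length in kb (x axis) in the sham, D14 and D56 libraries, for the 51 genes (coloured, with counts) and all protein-coding genes (grey). At D14 the shares ran from 60.0 to 92.3% with length, against 53.6 to 91.0% for all genes, and at D56 6 of the 13 longest genes had a peak.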

How the data were processed

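Runx1 ChIP-seq was analysed from the peak lists of 3 ChIP libraries (sham, D14, D56), each called against its own input. BWA, SAMtools and MACS2 with build mm10 are named in the submitters' processing notes. Per the file headers, the authors used MACS 2.0.10.20120913 with a q-value cutoff of 0.01, a genome size of 1.87 Gb, a local background of 1 kb and 10 kb, and scaling of the larger of ChIP and input down to the other. The deposited lists give, as pileup, how many ChIP fragments cover the summit after that scaling. Per the file headers, the −log10 p-value and −log10 q-value of a peak come from the same caller. Fold enrichment is the authors' ratio of pileup to local background. ChIP tags numbered 48816721 (sham), 78744701 (D14) and 49669125 (D56), and input tags 39609538, 49312043 and 19949187. The lowest pileup in a list was 14, 13 and 10.

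Only chromosomes 1 to 19, X and Y entered, and 7 sham and 15 D14 peaks on other sequences were set apart. Lists were compared by overlap of 1 bp or more, and shares carry 95% Wilson intervals, which cover counting error only. Gene ends came from a RefSeq table of GRCm38.p6, in which all 51 genes and all 40 genes of a list of matrix protease partners were matched. Genes have no exon records there, so exons and introns were not told apart. Promoter windows came from RefSeq for 36 genes. Those with no entry were Mmp2, Mmp9, Mmp16, Mmp17, Mmp19, Adamts4, Adamts5, Adamts6, Adamts7, Adamts8, Adamts10, Adamts15, Adamts16, Adamts19 and Adamtsl1, and for these only the distance to an annotated gene end is given.

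The genes, role classes and lists were chosen with earlier results of these data known. Named in full were up to 4 genes per class by highest fold, the 10 with the most D14 peaks without a sham overlap, those with such a peak found at D56, and any with a sham or D56 peak and none at D14 (there were 0). All 51 are accounted for. Alternatives were gene windows of 2.5 kb and of the body alone, each peak given to its closest gene, a minimum −log10 q of 5, a minimum fold of 5, lists of equal length, a reciprocal overlap of 50% and summits within 200 bp. Overlap and assignment were tested on simulated data. Python 3.11.15, pandas 2.3.3, NumPy 2.4.6 and matplotlib 3.10.9 were used.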

Additional observations from a re-analysis of the deposited data

How the results depend on the processing

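No paired analysis was possible because each condition has 1 ChIP library, and leaving one out ends the comparison. Results are counts and shares of the 51 genes' peaks without a test, and a p-value, a replicate range or a depth correction could not be given. The D56 list rests on the smallest input, and how much of its length follows from depth was not tested. A minimum −log10 q of 5, a gene window of 2.5 kb, the closest gene alone and summits within 200 bp left the shares over the 51 genes within their counting intervals and their summed counts within 1.5 times those given. Single genes moved more: the difference of D14 and sham peaks changed in size at 17, 14 and 11 of 42 genes under the first 3 of these, and with the closest gene Timp1 had 1 D14 peak and Mmp24 3. With folds of 5 or more, the genes had 150 peaks at D14 and 61 in sham. Of these D14 peaks, 64.0% lacked a sham overlap, against 60.7% over all protein-coding genes. Of those, 12.5% were found at D56, against 13.4%. Of D56 peaks, 31.3% lacked a sham overlap (19.9 to 45.3), against 22.3%. In lists of equal length they had 64 peaks at D14 and 67 in sham, 28.1% of D14 peaks lacked a sham overlap, and 27.8% of those and 87.0% of the others were found at D56. There, 31.3% of sham peaks lacked a D14 overlap and 22.4% of D56 peaks a sham overlap. With the gene body alone 42 D56 peaks were left. With a reciprocal overlap of 50%, 70.9% of D14 peaks lacked a sham overlap (65.0 to 76.1), against 64.4% over all protein-coding genes. Of the others, 44.6% were found at D56, against 46.0%. Under this rule 46.0% of sham peaks lacked a D14 overlap (37.9 to 54.3), against 25.5%. The share of D56 peaks without a sham overlap was 44.8% (33.5 to 56.6), against 24.8%. Leaving out Adamtsl4, chosen after seeing the data, moved the share of sham peaks without a D14 overlap to 15.8%.

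Of 42 genes with a peak, 34 had more at D14 than in sham, 4 as many and 4 fewer. No such count was made over all protein-coding genes, and the whole D14 list held 56316 peaks against 25052 in sham. Whether these genes differ from others in this count was thus not tested, and the same holds for lists of equal length. In lists of equal length 9 of the 42 genes had more at D14, 20 as many and 13 fewer. The difference (D14 minus sham peaks) turned there to -2 at Adamts2, to -1 at Mmp8, Mmp11, Mmp14, Adamts9, Adamts17, Adamtsl2 and Adamtsl5, and to 1 at Adamts10. With folds of 5 or more it turned to 1 at Adamts1 and Adamts19, 2 at Adamts10 and -1 at Mmp8. The equal lists hold fewer D14 peaks by construction, and the cause of the other turns was not tested.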

Other observations

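Genes that activate, bind or regulate matrix proteases also carried Runx1 peaks. Of 40 such genes, 26 (sham), 33 (D14) and 21 (D56) had a Runx1 peak, with 88, 212 and 32 peaks. These shares of 65.0, 82.5 and 52.5% stood beside 60.3, 73.3 and 53.7% of all protein-coding genes. In lists of equal length the numbers of genes were 22, 23 and 21. Of the 212 D14 peaks, 130 overlapped no sham peak (61.3%, 54.6 to 67.6), against 55.4% over all protein-coding genes, which that interval holds, and 2 of those were found at D56 (1.54%, against 1.61%). Of the 88 sham peaks, 12 overlapped no D14 peak (13.6%, 7.98 to 22.3), against 7.16%. By number of D14 peaks the list was led by Thbs1, a thrombospondin that can activate latent TGF-beta, with 17, 24 and 3 peaks in the same order. Thsd4, a microfibril protein related to the ADAMTS-like genes, had 4, 20 and 0. Adam12, a membrane-bound relative of the ADAMTS proteases, had 2, 17 and 0, and Lrp1, the receptor that clears several MMPs and TIMPs, had 9, 14 and 2. Adam19 had 5, 11 and 1, and the proprotein convertase Pcsk5 had 4, 9 and 2. Fap, a serine protease of activated fibroblasts, and the protease inhibitor A2m had no peak in any library.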
